A study of Drosophila melanogaster with 2 samples.

Results

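Doc1, Doc2, Doc3, tup, zen, dpp, tin, bap and Hand are 9 of the 13945 protein-coding genes on the annotated chromosome arms, chosen by name as regulators of the amnioserosa and the heart, and each was examined over its body plus 2000 bp upstream for sites occupied by the nuclear receptor Ftz-F1. The data are chromatin immunoprecipitation sequencing (ChIP-seq) peak lists from 1 group: unsorted whole Drosophila melanogaster embryos of mixed sex, 0 to 24 h old, from 1 transgenic fly line that stably expresses Ftz-F1 joined at its C-terminus to green fluorescent protein (strain ftz-f1-GFP). Sonicated chromatin was precipitated with an antibody against that tag. The 2 libraries are biological replicates 1 and 4, and neither a second condition nor an untagged line is part of the lists used here, so no contrast was tested. Peak lists carry no expression values, so the presence of amnioserosa or heart cells could not be checked from marker genes. All values below describe 4 lists in the build dm6. One holds the 3960 peaks kept by the authors' irreproducible discovery rate (IDR) step, which compares peak ranks between replicates. The others hold 30000 peaks each, for the pooled replicates, for replicate 1 and for replicate 4. The authors label the pooled list as peaks and background given to the IDR step, so an entry there is not by itself a binding site. The IDR peaks are the strongest 3960 of the pooled list, and 3885 of their summits were covered by a peak in both replicates. A place in the IDR list is thus a cut on pooled signal and not a check of each peak in both replicates.

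The amnioserosa is an extraembryonic epithelium that covers the dorsal side of the fly embryo and is needed for germ band retraction and dorsal closure. It forms where signalling by Dpp, a ligand of the bone morphogenetic protein (BMP) family, is strongest, through zen and the genes downstream of it. Dpp from the dorsal ectoderm also reaches the mesoderm beneath, where it maintains tin, and with tin the T-box and GATA factors set up the heart and bap the gut muscle. Ftz-F1 is an orphan nuclear receptor, best known in the embryo as the partner of the homeodomain protein Ftz in segmentation and, in its later form, for roles at moults and metamorphosis.

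The genes fell into groups of 3 by Ftz-F1 signal. Doc3, tin and tup each had 1 summit in the IDR list, all 3 upstream of the gene's own start. Doc1, Doc2 and dpp had summits at their starts that were listed in the pooled data and in both replicates, with pooled signal below the lowest value of the IDR list. Hand, bap and zen had at most 1 weak summit in any list, and zen had none.

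Counted over all 4 lists, 3 of the 9 genes (33.3%) held an IDR summit, against 26.1% of all protein-coding genes. In the pooled list 7 of the 9 genes held a summit, against 69.1% of all genes. In replicate 1 it was 6 of the 9 genes, against 69.8% of all genes, and in replicate 4 it was 8 of the 9 genes, against 70.2%. With a summit required to lie within 500 bp of one of the gene's own starts, the counts were 3 of 9 in the IDR list, against 18.4% of all genes, and 6 of 9 in the pooled list, against 57.8%. With 9 genes, each count lies within 2 genes of what the share over all genes would give, so none sets these genes apart. The IDR list held 3.26 summits per 100 kb of the 9 genes' regions, against 4.44 per 100 kb over all genes. Without dpp, whose region of 33.5 kb held no IDR summit, the density was 5.12 per 100 kb.

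**Figure D1:**
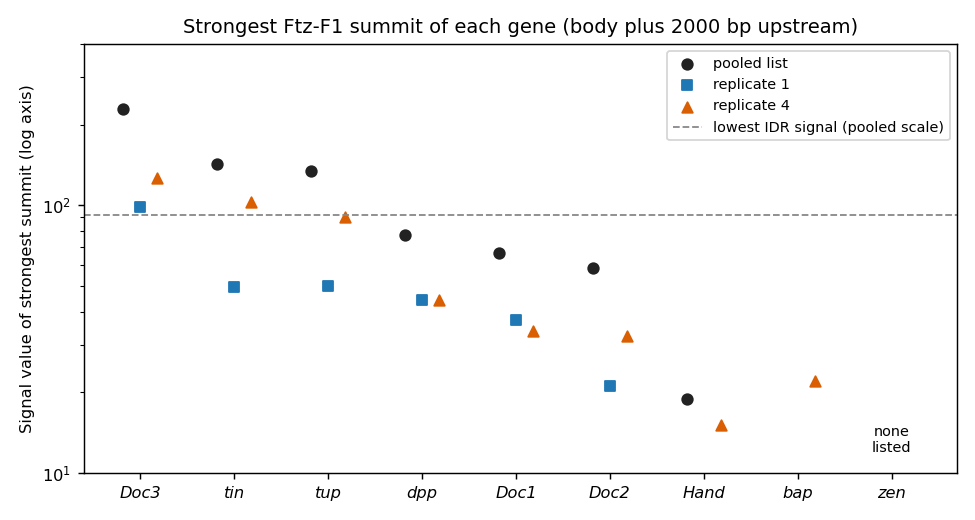
Signal value (log axis, the authors' scale) of the strongest summit of each gene in the pooled list (circles), replicate 1 (squares) and replicate 4 (triangles), with a dashed line at the lowest signal of the IDR list, which is on the pooled scale. Doc3, tin and tup lie above the line in the pooled list, dpp, Doc1 and Doc2 lie below it at 77.1, 66.2 and 58.4, zen has no summit in any list, and the replicate 1 point of tin is the summit at mod(mdg4), not the tin promoter.

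The sequences under the IDR summits are shown because these are the only summits of the 9 genes in the IDR list. Each is the RefSeq release 6 sequence within 100 bp of the summit, on the plus strand and 5′ to 3′, from chr3L:9004802-9005002 for Doc3, chr3R:21378719-21378919 for tin and chr2L:18881294-18881494 for tup. The tup gene lies on the minus strand, so its transcription runs towards the left end of the line. Capitals mark matches to the GATA site WGATAR on either strand, the only one of 12 searched motifs found in these windows.

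Doc3: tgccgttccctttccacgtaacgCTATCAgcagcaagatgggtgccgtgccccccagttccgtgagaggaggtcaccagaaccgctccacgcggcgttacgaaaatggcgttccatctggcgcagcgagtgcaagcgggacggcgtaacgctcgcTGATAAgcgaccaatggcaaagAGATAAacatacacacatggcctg
tin: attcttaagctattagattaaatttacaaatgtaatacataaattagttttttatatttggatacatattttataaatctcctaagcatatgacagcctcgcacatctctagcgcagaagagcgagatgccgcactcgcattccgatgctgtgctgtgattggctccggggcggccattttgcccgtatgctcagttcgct
tup: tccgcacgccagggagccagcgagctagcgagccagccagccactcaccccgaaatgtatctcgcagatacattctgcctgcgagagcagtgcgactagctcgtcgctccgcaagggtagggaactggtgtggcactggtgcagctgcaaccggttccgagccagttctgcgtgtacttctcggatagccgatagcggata

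The Doc3 window held 3 GATA matches, at 57.5, 74.5 and 79.5 bp from the summit to the middle of the match. The tin and tup windows held no match to any motif searched. GATA matches are common, in 31.0% of all IDR windows and 30.3% of all pooled windows. In the 9 genes 1 of the 3 IDR windows and 9 of the 33 pooled windows (27.3%) had one, near those shares. The Ftz-F1 consensus YCAAGGYCR was in none of the 3 windows, against 6.54% of all 3960 IDR summits. Its strict form CAAGGTCA, which only part of the consensus matches contain, and its loose form AAGGYCR, which all contain, were also absent there. Of all IDR summits, 4.02% had the strict form and 18.5% the loose form. The absence says only that these letters are not within 100 bp of these summits. The windows differed in base composition, with 58.2% G or C for Doc3, 40.8% for tin and 60.7% for tup, against a median of 46.8% and quartiles of 40.8% and 51.7% over all IDR windows.

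Doc3 is one of the 3 Dorsocross T-box factors, which act together in the amnioserosa and in cardiac progenitors. It (FBgn0035954, chr3L:9005196-9007249, plus strand) carried the strongest summit of the 9 genes, at position 9004902, 294 bp upstream of its start. The signal value there was 98.8 in replicate 1 and 127 in replicate 4, and 229 in the pooled list. Both replicates placed it among their strongest 1000 peaks, at ranks 863 and 548. In the pooled list it ranked 612, and 15.5% of IDR peaks had at least this signal. A second pooled summit stood 77 bp upstream of the start with a signal of 57.8 (rank 8175), and the nearest replicate summits had 48.8 in replicate 1 and 20.5 in replicate 4. Its window held the Tinman-type site CACTTGA and the Zelda site CAGGTAG. The Doc3 promoter thus had a strong distal and a weaker proximal summit, and both replicates listed both.

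The NK-family homeodomain factor tin (FBgn0004110, chr3R:21378977-21381970, plus strand) is required for heart and visceral muscle. Its IDR summit lay at 21378819, 158 bp upstream of the start, with a signal of 35.9 in replicate 1, 103 in replicate 4 and 142 in the pooled list (rank 1660). The replicates differed here more than at most IDR summits. The peak ranked 6643 in replicate 1, outside that list's strongest 3960, and 879 in replicate 4. Of the 3885 IDR summits covered by a peak in both replicates, 50 (1.29%) leaned at least as far towards replicate 4.

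A second tin summit, 1653 bp upstream at 21377324, leaned the other way. It had a signal of 49.7 in replicate 1 and 31.4 in replicate 4, with ranks 3729 and 7972, and 85.9 in the pooled list (rank 4435), which is 0.94 of the lowest IDR signal. This summit was 77 bp downstream of a start of mod(mdg4), a chromatin protein gene, so its place does not tie it to tin. In replicate 1 the strongest summit of the tin region was the one at mod(mdg4), and in replicate 4 it was the tin promoter. The remaining pooled summits of tin were at the bottom of the list, with 19.8 at 21377551, 150 bp upstream of the same mod(mdg4) start, and 19.8 in the tin intron at 21380057, where neither replicate had a covering peak. The gene's presence in the IDR list therefore rests on replicate 4 more than on replicate 1.

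The LIM-homeodomain factor tup (also called islet; FBgn0003896, chr2L:18859507-18881261, minus strand) acts in the amnioserosa and in early heart formation. Its IDR summit, at 18881394, was 133 bp upstream of its single annotated start. The signal value was 49.7 in replicate 1, 90.4 in replicate 4 and 134 in the pooled list (rank 1906). Both ranks were within the strongest 3960 of their lists, at 3724 in replicate 1 and 1184 in replicate 4, and 9.63% of IDR summits leaned as far towards replicate 4. For Doc3 that share was 30.1%, so among the 3 the replicate ranks were closest for Doc3, then tup and then tin. With 1 rank per replicate, this order does not measure repeatability. A weak pooled summit of 24.3 stood 358 bp upstream of the tup start, and another of 25.5 lay in a coding exon near its 3′ end. Another IDR peak, with a signal of 92.9 and rank 3884, reached into tup, and its summit lay 163 bp beyond the 3′ end of the gene and 96 bp upstream of the start of mRpL13, a mitochondrial ribosomal protein gene.

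**Figure D2:**
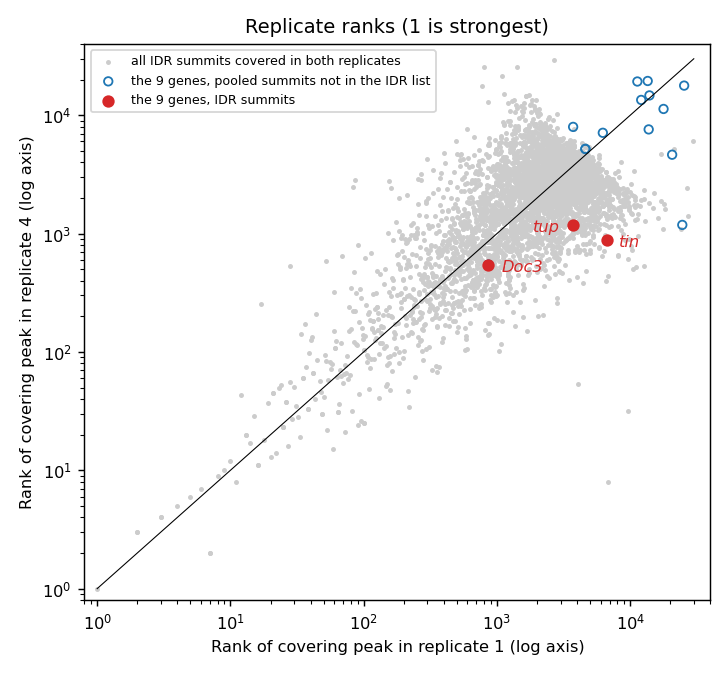
Rank of the covering peak in replicate 1 (horizontal, log axis) and in replicate 4 (vertical, log axis) for all IDR summits covered in both (grey), the 3 IDR summits of the 9 genes (red) and their other pooled summits (open blue); 1 is the strongest and the line marks equal ranks. The tin, tup and Doc3 points lie below the line, at ranks 879, 1184 and 548 in replicate 4 and 6643, 3724 and 863 in replicate 1. Neighbouring summits can share a covering peak, as the proximal Doc3 summit does with the distal one.

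All 3 IDR summits were ranked higher in replicate 4. Over all IDR summits the replicates had nearly the same median rank, 1946 in replicate 1 and 1944 in replicate 4. Depth is unknown for both libraries, the labels do not say whether they came from separate fly cultures, and the part of either in this lean was not tested. In whole embryos fewer cells with Ftz-F1 at a site cannot be told apart from less Ftz-F1 per cell at that site.

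The main summits of Doc1 and Doc2 were upstream promoter summits like that of Doc3, but lay nearer to the start and were weaker. Doc1 (FBgn0028789, chr3L:9041375-9045042, plus strand) had its main summit at 9041254, 121 bp upstream of the first start, with a signal of 37.3 in replicate 1, 33.8 in replicate 4 and 66.2 in the pooled list (rank 6650). The replicate ranks were close, 6229 and 7107, with neither in the strongest 3960. Doc2 (FBgn0035956, chr3L:9012686-9019246, minus strand) had its main summit at 9019380, 134 bp upstream, with a signal of 21.1 in replicate 1, 32.4 in replicate 4 and 58.4 in the pooled list (rank 8044). The Doc3 summit was the highest of the 3 in each replicate and in the pool. As the lists carry 1 signal per replicate, no error can be put on the ratio between these promoters.

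The promoter windows of Doc1 and Doc2 are shown to set beside Doc3, from chr3L:9041154-9041354 and chr3L:9019280-9019480 on the plus strand, with Doc2 transcribed from the minus strand. Capitals mark matches on either strand to any of the motifs searched. In Doc1 these are the Brinker-type site GGCGYC, found as ggcgcc and ggcgtc, and the Zelda site CAGGTAG, found as ctacctg on the plus strand. In Doc2 they are the GATA site WGATAR, found as ctatca, and an overlapping pair of matches to the GAGA site GAGAGA.

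Doc1: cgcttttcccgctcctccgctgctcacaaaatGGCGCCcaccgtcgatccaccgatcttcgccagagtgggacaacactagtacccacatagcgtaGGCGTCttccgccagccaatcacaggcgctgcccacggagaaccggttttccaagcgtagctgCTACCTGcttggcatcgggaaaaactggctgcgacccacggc
Doc2: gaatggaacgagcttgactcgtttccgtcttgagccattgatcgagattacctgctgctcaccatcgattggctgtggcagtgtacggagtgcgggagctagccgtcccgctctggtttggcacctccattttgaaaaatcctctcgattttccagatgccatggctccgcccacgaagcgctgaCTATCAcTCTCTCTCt

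One of the Brinker-type matches in Doc1 was centred 1.5 bp from the summit. Brinker is a repressor of Dpp targets in the fly, and the match is a description of the letters, not a bound site. Brinker-type letters were found near 6 of the 33 pooled summits of the 9 genes (18.2%), against 12.2% of all pooled summits. The Zelda site, bound by a factor of early zygotic activation, was found near 4 of the 33 (12.1%), against 1.24% of all pooled summits and 0.808% of all IDR summits. Those 4 were the Doc1 promoter, the Doc1 intron summit at 9042504, the proximal Doc3 summit and the dpp summit at 2451279, and 4 matches are few.

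The 3 Doc genes lie together on 3L within 39.8 kb. With 2000 bp on each side, that stretch held 19 pooled summits, of which the Doc3 promoter was the only one in the IDR list, and 12 lay outside the regions examined for the 3 genes. Between the Doc2 and Doc1 regions there were 9 intergenic summits with a signal of 18.9 to 41.4, each weaker than the main summit of any Doc gene. The strongest of these, at 9023431, lay 4185 bp upstream of the Doc2 start. Signal in the Doc cluster was thus highest at the 3 promoters.

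**Figure D3:**
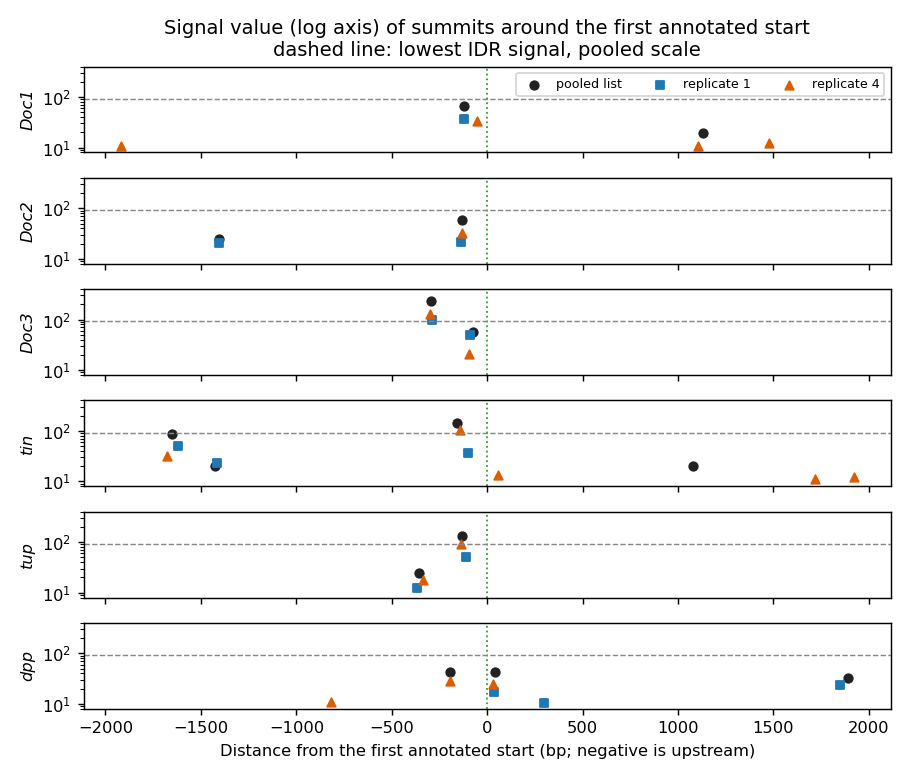
Signal value (log axis, the authors' scale) of summits within 2000 bp of the first annotated start of Doc1, Doc2, Doc3, tin, tup and dpp, against distance in bp, for the pooled list (circles), replicate 1 (squares) and replicate 4 (triangles); the dashed line is the lowest IDR signal on the pooled scale. The main summits of Doc1, Doc2, tin, tup and Doc3 stand 121, 134, 158, 133 and 294 bp upstream, and the first dpp start has weaker summits on both sides.

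The main summits of these 5 genes lay 121 to 294 bp upstream of a start, a range read off the values after they were seen and not tested. Over all IDR summits within 500 bp of a start, the median was 24 bp upstream, with quartiles of 96 bp upstream and 44 bp downstream. The summits at the dpp starts, described next, lay on both sides, from 195 bp upstream to 50 bp downstream. A summit marks the highest point of the pulled-down fragments and not the bound bases, which the labels put at 200 to 800 after sonication, without a unit.

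The gene dpp (FBgn0000490, chr2L:2428372-2459823, plus strand), which encodes the BMP ligand that patterns the dorsal ectoderm, differed from the others by its number of summits. It held 18 pooled summits, 14 in replicate 1 and 16 in replicate 4, and no IDR summit. The pooled signals ran from 18.7 to 77.1, in a list with a lowest value of 18.2 and a median of 35.4. Several of these summits were thus near the bottom of the list. The −log10 q-values deposited for them ran from 0.421 to 4.18, the ceiling of the list. Only 229 protein-coding genes (1.64%) held at least as many pooled summits, and 209 of these (91.3%) also held an IDR summit, which leaves dpp among 20 that did not. The gene is long, and per length it was less unusual, with 53.8 pooled summits per 100 kb, a density that 32.5% of genes reached. Its 18 summits were more than the 15 of the other 8 genes together, and without dpp the pooled density of the set was 25.6 per 100 kb, below the 30.9 over all genes; with dpp it was 35.8.

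The annotation gives dpp 4 transcript starts. The strongest summit, at 2451078, lay 151 bp upstream of the third, with a signal of 44.4 in replicate 1, 41.2 in replicate 4 and 77.1 in the pooled list. Its pooled rank of 5342 and 0.84 of the lowest IDR signal make it the closest to the IDR list among the genes without an IDR summit. The summit in replicate 4 was 92 bp from the pooled one, and that in replicate 1 was 1 bp from it. At the last start, a summit 49 bp downstream had 14.7 in replicate 1, 44.4 in replicate 4 and 62.2 in the pooled list, so here replicate 4 was higher. At the first start a pair of summits, 195 bp upstream and 39 bp downstream, had 43.3 and 42.2 in the pooled list. Replicate 1 listed only the downstream one of this pair, with 16.9, and replicate 4 listed both, with 28.5 and 24.4. No summit stood within 500 bp of the second start in any list.

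**Figure D4:**
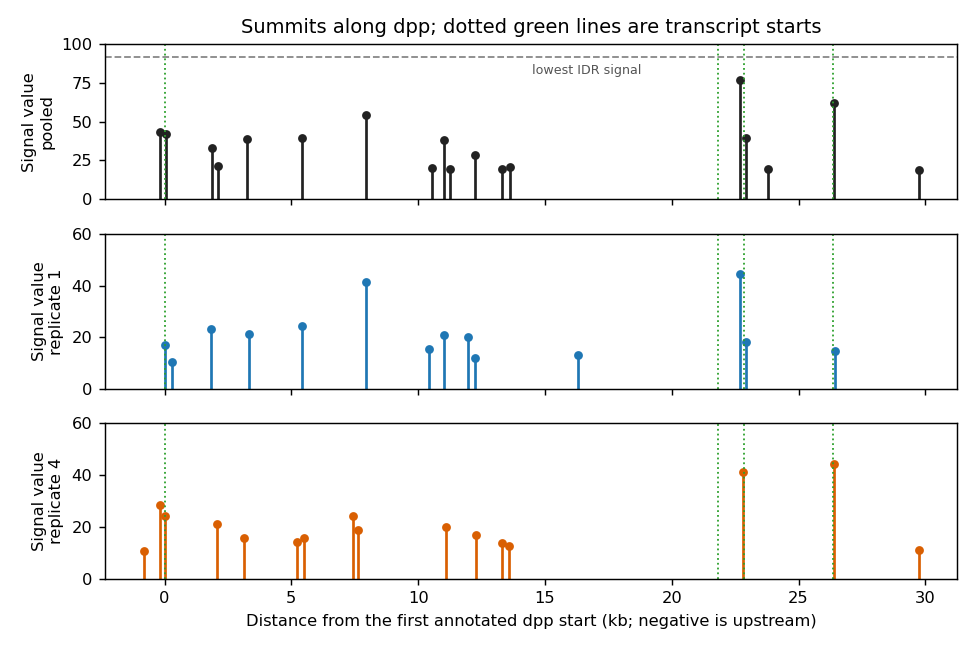
Signal value (the authors' scale) of every dpp summit in the pooled list, replicate 1 and replicate 4, against distance in kb from the first annotated start, with dotted lines at the 4 starts and a dashed line at the lowest IDR signal in the pooled panel. The highest pooled summits, 77.1 and 62.2, stand at the third start and the last one, and the tallest intronic one, 54.3, is listed in replicate 1 and has no covering peak in replicate 4.

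Of the 18 pooled dpp summits, 11 lay in introns. The tallest of these, at 2436323, was 7951 bp inside the gene with a signal of 54.3 in the pooled list and 41.4 in replicate 1, and no replicate 4 peak covered it. Replicate 4 had separate summits nearby, of 24.3 at 2435804 and 18.8 at 2436010. Peaks of both replicates covered 5 of the 11 intronic summits and 4 of the 5 promoter summits of dpp. Neighbouring summits can share a covering peak, as 2451279 does with 2451078, at rank 4609 in replicate 1 and 5190 in replicate 4. A summit in a 5′ UTR, at 2452147, was covered in neither replicate.

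One intronic summit of dpp is shown because it is the only one of the 33 pooled summits of the 9 genes with the full Ftz-F1 consensus, and the promoter summit at the third start is shown beside it as the strongest of the gene. They are chr2L:2450978-2451178 for the promoter and chr2L:2441579-2441779 for the intron, both on the plus strand. Capitals mark GAGA-site matches in the promoter window. In the intron window they mark a GATA match, ttatca, and then the Ftz-F1 match, which reads tgaccttga on the plus strand and fits YCAAGGYCR on the minus strand.

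dpp promoter: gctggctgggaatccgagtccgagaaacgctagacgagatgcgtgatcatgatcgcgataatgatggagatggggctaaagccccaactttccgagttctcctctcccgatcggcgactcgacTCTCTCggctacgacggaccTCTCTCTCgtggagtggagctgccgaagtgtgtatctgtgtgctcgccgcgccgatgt
dpp intron: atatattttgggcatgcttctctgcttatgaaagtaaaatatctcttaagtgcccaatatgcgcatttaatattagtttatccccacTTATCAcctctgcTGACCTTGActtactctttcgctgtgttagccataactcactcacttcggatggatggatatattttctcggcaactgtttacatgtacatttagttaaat

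The Ftz-F1 match was centred 4 bp from the intronic summit at 2441679. The signal there was low, 19.7 in the pooled list (rank 27996) and 13.8 in replicate 4 (rank 22671), and replicate 1 had no covering peak. The −log10 q-value of this pooled summit was 0.461. Across the pooled list 3.43% of summits had the consensus within 100 bp, against which 1 of 33 (3.03%) in the 9 genes is near the background. The loose form AAGGYCR was near 3 of the 33, all in dpp introns, against 12.7% of all pooled summits. The consensus letters occurred at 4 places in the regions of the 9 genes, 3 in dpp and 1 in tup, and only the dpp site shown was inside a pooled peak. The tup site, tcaaggtca at 18882720, was 1105 bp from the nearest pooled summit. The strongest summits of the 9 genes were thus not the places with the consensus.

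Hand, bap and zen had little or no listed signal. Hand (FBgn0032209, chr2L:10292679-10295385, minus strand), a basic helix-loop-helix factor of the heart, blood and visceral muscle, had 1 pooled summit, in its intron 1369 bp downstream of the start. Its signal was 15.2 in replicate 4 and 18.8 in the pooled list, near the lowest value of that list (18.2), with a rank of 29218, and replicate 1 had none. The −log10 q-value of the pooled summit was 0.425. The window held a Tinman-type match, as did 3.83% of all pooled windows. The nearest IDR summit was 11.5 kb upstream at the promoter of CG4968.

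The NK-family factor bap (FBgn0004862, chr3R:21388880-21390449, plus strand), which acts downstream of tin in visceral muscle, had a single summit in replicate 4, 1284 bp upstream of the start with a signal of 22.1 (rank 12857). Replicate 1, the pooled list and the IDR list had none. A pooled summit of 45.2 (rank 11310) lay just beyond the region, 2595 bp upstream of the start in the sequence between tin and bap. The tin promoter summit, 10.1 kb upstream, was the IDR summit nearest to bap.

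The homeodomain gene zen (FBgn0004053, chr3R:6752864-6754194, minus strand), which specifies the amnioserosa in early embryos, had no summit in any list. Its nearest pooled summit was 7006 bp upstream, with a signal of 40.2 (rank 13022). Its nearest IDR summit was 37.5 kb upstream, at the promoter of the Hox gene Dfd, with a signal of 299 (rank 309). A gene without a summit here is one without a listed peak in this whole-embryo collection, which does not show that Ftz-F1 is absent from it.

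The zen, bap and Hand regions are short, 3.33, 3.57 and 4.71 kb, and longer regions held IDR summits more often. Of all genes with regions under 5 kb, 18.2% held an IDR summit, and of the 5 among the 9 genes in that band 2 did, Doc3 and tin. Between 5 and 10 kb the share was 33.0%, and neither Doc1 nor Doc2 held one. Between 20 and 40 kb it was 45.3%, and of tup and dpp only tup held one.

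Over the 33 pooled summits of the 9 genes, 14 were promoter summits, within 500 bp of a transcript start (42.4%), against 39.0% of all pooled summits, and 14 were in introns (42.4%), against 35.2%. Of the other 5, 3 were in coding exons, 1 in a 5′ UTR and 1 between genes. All 3 IDR summits were at promoters, where 61.0% of all IDR summits lay. Replicate 1 covered 21 of the 33 and replicate 4 covered 27, with 17 covered by both and 2 by neither. These counts include neighbouring summits that share a covering peak.

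Other genes of the same biology were counted from lists chosen by function, with earlier results of these data known. Their shares are thus a description and were not tested. Among 42 such genes 25 held an IDR summit (59.5%), against 26.1% of all genes. Their regions were long, with a median of 14.0 kb, against 4.99 kb for the 9 genes and 4.17 kb for all genes. Of all genes with regions of 10 to 20 kb, 45.5% held an IDR summit. With the summit required within 500 bp of an own start, 13 of the 42 (31.0%) had one, against 18.4% of all genes. For 8 of the 25 the strongest IDR summit was at a promoter with an own start nearest, and for 7 the nearest start was that of another gene. For 10 it lay outside promoters. These classes go by the nearest start alone. The C15 summit, nearest to a non-coding RNA start, counts among the 7 and was also within 500 bp of a C15 start.

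Among 11 genes of the amnioserosa and dorsal ectoderm, 5 held an IDR summit, namely ush, srp, Ance, pnr and C15. The highest was in ush, a cofactor of GATA factors, which held 16 IDR summits with a best pooled signal of 1053 (rank 14), in an intron 1368 bp from the start of cbt. The GATA factor gene srp had one of 317 (rank 273) in a 5′ UTR, and pnr, a GATA factor of dorsal ectoderm and heart, had one of 118 (rank 2476) 134 bp upstream of its start. The summit in Ance, a peptidase gene expressed in the amnioserosa, had 156 and lay 54 bp from a start of Smg5. Neither zen2, a neighbour and relative of zen, nor Kr or peb held one.

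In the Dpp pathway 10 of 16 genes held an IDR summit. The BMP ligand gene gbb had one of 272 at an antisense transcript start, Dad, an inhibitory Smad, had 4 with a best of 237, and shn, a cofactor in Dpp responses, had 5 with a best of 201. The repressor brk had one of 118, 117 bp upstream of its start. The receptor genes tkv, put, sax and wit and the Smad genes Mad and Med held the others, with the strongest summit of sax and of Med at the promoter of a neighbour. The extracellular modulators sog, tsg, tld and tok, the ligand gene scw and the ubiquitin ligase gene Smurf held none.

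Of 16 heart and visceral mesoderm genes 11 held an IDR summit. The highest, 446 in the region of the ion channel subunit gene Sur, lay 28 bp from the start of the ribosomal protein gene RpL7. The muscle regulator Mef2 held 8 with a best of 329 in an intron. The nuclear receptor gene svp held 2 with a best of 311, 140 bp upstream of its start. The FGF receptor gene htl had one of 284, 318 bp upstream. Each of these exceeded the 229 of Doc3, but they were named as the highest of the list. The next gene, twi, had 226, and the rest of the list had lower values or no IDR summit.

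**Figure D5:**
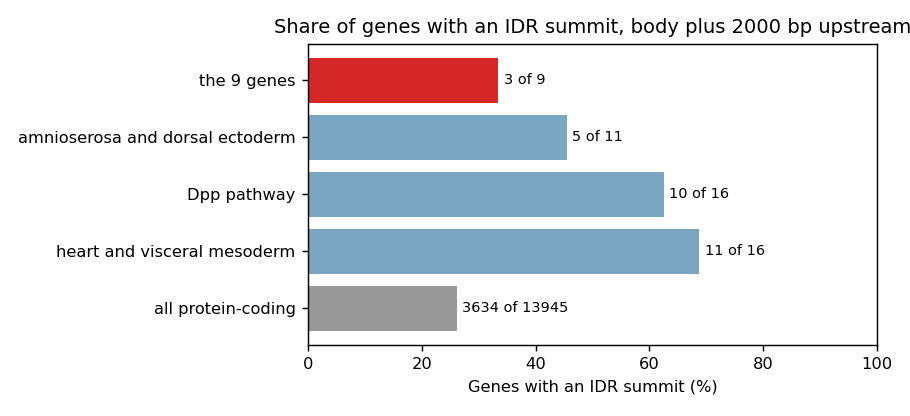
Share of genes (%, horizontal) with at least 1 IDR summit in the body plus 2000 bp upstream, for the 9 genes, the 3 lists of other genes and all protein-coding genes, with counts beside the bars. The bars stand at 33.3, 45.5, 62.5, 68.8 and 26.1% from top to bottom, and the lists also differ in region length.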

How the data were processed

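ChIP-seq of tagged Ftz-F1 was deposited as peak lists for replicates 1 and 4, for their pool and for the IDR step, in dm6 and dm3; the dm3 lists were not used. Per the file listing, both replicates were called against the same control file. Not given in the sources used here are the aligner, the caller, what the control was and at which IDR value peaks were kept. Column 7 holds the signal value of each peak, deposited by the authors on a scale the files do not state. Column 9 holds a −log10 q-value, deposited by the authors, with a ceiling of 4.18 shared by 7579 pooled peaks, so peaks were ranked by signal value within each list. Every IDR peak is also among the strongest 3960 pooled peaks. Read depth is unknown, so no intervals could be given.

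Summits (1-based, dm6) were assigned to genes with the BDGP6 annotation of Ensembl release 115; arm lengths were checked against the RefSeq release 6 genome, from which sequences were read. Promoters were 500 bp either side of any start, and motifs were searched on both strands within 100 bp of summits, as spelled out beside the results. Also searched were a T-box site with the letters GGTGTGA, a DREF site read as TATCGATA, the site of the promoter factor M1BP, which is GGTCACACT, and a Dorsal-type site of the form GGGWWWWCC. These were found near 0 of the 33 pooled summits of the 9 genes, against 1.92, 2.06, 1.61 and 1.54% of all pooled summits in that order. A replicate value is that of the strongest peak covering the summit, and where the nearest replicate summit within 200 bp was used the text says so. The 9 genes, and up to 4 genes of each further list by strongest IDR signal, are named, with neighbours that share a summit; the further genes named, with or without an IDR summit, fall outside that rule and were picked after their values were seen. The genes and lists were chosen with earlier results of these data known. Python 3.11.15, numpy 2.4.6, pandas 2.3.3 and matplotlib 3.10.9 were used, and the assignment was tested on simulated peaks.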

Additional observations from a re-analysis of the deposited data

How the results depend on the processing

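Of 41 alternatives for the main counts, 34 left them within 1.5 times, and 13 of 13 alternatives for the ranks of single summits did not move them. Without the upstream stretch (0 bp), none of the 9 genes held an IDR summit (0 genes, 0 summits), against 12.9% of all genes, and 12 of the 42 further genes did. With 10000 bp upstream the same 3 of the 9 genes held an IDR summit, against 42.9% of all genes. They then held 6 summits, the added ones at starts of CG5087 and pre-mod(mdg4)-N and in mod(mdg4). With the strongest 7920 pooled peaks in place of the IDR list, Doc1 and dpp joined Doc3, tup and tin, making 5 genes with 7 summits, against 42.7% of all genes. With the loose consensus 3 pooled summits matched, against 1. Without replicate 1 or without replicate 4, as the strongest 3960 peaks of the other, Doc3, tup and tin were again the 3 genes. The share of all genes was 25.3% without replicate 1 and 26.7% without replicate 4. The summits ranged from 3 to 4 and the further genes from 20 to 22. Without replicate 4, tin was counted through the summit at mod(mdg4) and not through its promoter. No paired analysis was possible because there is 1 group and no test. Unknown depth limits every statement on genes without a summit.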
